A study of Mus musculus with 2 samples.

Results

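Described here are 55 genes whose products fold, translocate, process and sort proteins in the endoplasmic reticulum, as measured in single epithelial cells of the mouse oviduct. The genes were named as a list, not picked by a threshold, but with earlier results of these data known. All 55 were listed in both tables, among 27998 genes in the adult table and 53573 in the table of postnatal day 4 (P4). They were followed by the authors' cluster numbers and against the level of Ovgp1, which encodes the oviductal glycoprotein that secretory cells release around the egg. The members fall into 9 roles. Hspa5, Hsp90b1, Hyou1, Dnajb11, Dnajc3, Dnajb9, Sdf2l1, Manf and Creld2 encode chaperones and co-chaperones. Pdia3, Pdia4, Pdia6, P4hb and Fkbp11 encode disulfide and prolyl isomerases, and Calr and Canx encode the lectin chaperones that bind new glycoproteins. Srp9, Srp14, Srprb, Sec61a1, Sec61b, Sec61g, Sec63, Tram1, Ssr1, Ssr2, Ssr3 and Ssr4 serve the targeting of ribosomes to the membrane and translocation through it. Sec11c, Spcs1, Spcs2 and Spcs3 form the signal peptidase, and Ostc, Ddost, Rpn1, Rpn2, Dad1 and Krtcap2 belong to the oligosaccharyltransferase. Sel1l, Herpud1, Syvn1, Derl1, Derl2 and Derl3 act in the degradation of misfolded proteins. Kdelr1, Kdelr2, Tmed2, Tmed10 and Lman1 act in retrieval and cargo transport between reticulum and Golgi. Xbp1, Atf4, Ddit3, Atf6, Ern1 and Creb3l1 encode stress sensors and transcription factors, so the last of the groups regulates folding genes and does not itself fold proteins.

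A protein with a signal peptide is threaded through the Sec61 channel while it is made, loses that peptide to the signal peptidase, and receives sugars from the oligosaccharyltransferase. Chaperones, lectins and disulfide isomerases then hold it until it is folded, and failures are sent back to the cytosol for degradation. Cells that release much protein carry more of this machinery, and the unfolded protein response, through Ern1 and Xbp1, Atf6 and Atf4, is known to raise it when unfolded proteins build up.

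The study asked whether the epithelium of the oviduct holds separate lineages at the end near the ovary and at the end near the uterus. Oviducts of C57BL/6 mice were digested to single cells, and a sort removed dead cells and enriched the epithelium by Epcam and CD45 staining before Chromium 3' V2 library preparation. One library came from adult mice at estrus and the other from mice at P4, for which no estrous stage applies; the labels name no treatment or transgene, and how many animals each library held is not given in the sources used here. The adult library held 406 cells (1401641 UMI, median 3232 per cell) and the P4 library 263 cells (2123202 UMI, median 7585). Under both column prefixes of the adult matrix stood 401 barcodes, each counted once here. Of these, 399 carried the same cluster number under both, and the libraries shared 0 barcodes.

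The authors' adult clusters are numbered 0 (130 cells), 1 (183), 3 (37), 4 (31) and 5 (25), and those of P4 are 0 (168) and 1 (95). Neither the labels nor the tables place a cluster along the tube. Summed over 9 secretory markers fixed in a list, clusters 0 and 4 stood at 87.5 and 343.5 UMI per 10000, against 11.4 and 33.7 in clusters 1 and 3. For 15 multiciliated markers the order was the other way, at 3.12 and 6.71 against 173.5 and 123.4. Ovgp1 is 1 of the 9 secretory markers and alone stood at 58.7 in cluster 0 and 282.1 in cluster 4. Cluster 5 stood at 58.6 for the secretory list and carried smooth muscle markers at 75.8, where the other adult clusters had at most 4.06. Ptprc, which encodes CD45, had 0 UMI in all 7 clusters.

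A level below is the UMI of a gene summed over a group of cells, per 10000 UMI of that group, with its exact 95% Poisson interval in brackets. Each age is 1 library, so there is no replicate, no test was made, and intervals cover counting error only. A member was measured in a comparison when the shares of cells with a UMI on its sides averaged 10% or more, and it was called higher or lower at a fold of 2 or more, with 0.1 per 10000 added to both levels. The clusters were made from expression, so differences between them describe these cells and are not independent evidence.

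Promoters are shown first, since the unfolded protein response acts through short motifs there. RefSeq start sites on build GRCm38.p6 matched 41 of the 55 members, and each window ran from 250 bases before the start to 50 after. The motif ERSE (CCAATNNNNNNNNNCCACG, either strand), a site where Atf6 and NF-Y are known to bind, was in 9 of the 41 windows, against 0.137% of all 27025 genes with an entry (37 genes). The related motif ERSE-II (ATTGGNCCACG, either strand) was in 3 (7.32%), those of Dnajb11, Krtcap2 and Herpud1, against 0.0444% of all genes. TGACGTGG, also known from Xbp1 and Atf6 targets, was in 0 of the 41 windows and in 0.714% of all. No member held both ERSE and ERSE-II. The stretches below were chosen because their genes recur in the results. Each is written 5′ to 3′ along the strand of its gene, with the motif in capitals, and those that begin with CGTGG carry ERSE on the opposite strand. That of Hspa5 is shorter because it lies in the first exon of a GENCODE transcript that starts further upstream.
Hspa5, chr2:34772020-34772048, plus strand, motif 65 to 47 bases before the RefSeq start: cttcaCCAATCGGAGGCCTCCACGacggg
Hsp90b1, chr10:86705513-86705571, minus strand, 107 to 89 bases before: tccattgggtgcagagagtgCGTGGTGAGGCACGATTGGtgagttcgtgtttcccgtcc
Creld2, chr15:88819500-88819558, plus strand, 126 to 108 bases before: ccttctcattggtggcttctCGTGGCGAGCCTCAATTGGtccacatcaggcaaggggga
Pdia6, chr12:17266471-17266529, plus strand, 98 to 80 bases before: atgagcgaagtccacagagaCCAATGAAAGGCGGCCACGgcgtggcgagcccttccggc
Calr, chr8:84847055-84847113, minus strand, 162 to 144 bases before: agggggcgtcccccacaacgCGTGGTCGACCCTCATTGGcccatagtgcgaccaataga
Derl3, chr10:75893222-75893280, plus strand, 156 to 138 bases before: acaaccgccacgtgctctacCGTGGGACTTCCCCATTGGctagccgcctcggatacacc
Herpud1, chr8:94386357-94386407, plus strand, ERSE-II 52 to 42 bases before: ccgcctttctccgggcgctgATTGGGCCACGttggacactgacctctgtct

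A second ERSE lay in the promoter of Hsp90b1, and Dnajc3, Canx and Syvn1 also held the motif. A match says that the letters are there, and binding was not measured. The window was not read for the 14 members without an entry.

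Adult cluster 4 carried the most UMI of these genes. Summed over the 55 members its level was 421.5 (405.4 to 438.1), 4.22% of all its UMI. Cluster 0 stood at 195.9 (192.1 to 199.8) and cluster 5 at 159.1 (151.8 to 166.7). Clusters 1 and 3, with cilium genes, stood at 121.3 (118.6 to 124.2) and 120.3 (114.3 to 126.6), whose intervals overlap. P4 clusters 0 and 1 were lowest, at 64.0 (62.7 to 65.3) and 67.8 (65.8 to 69.8).

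**Figure D1:**
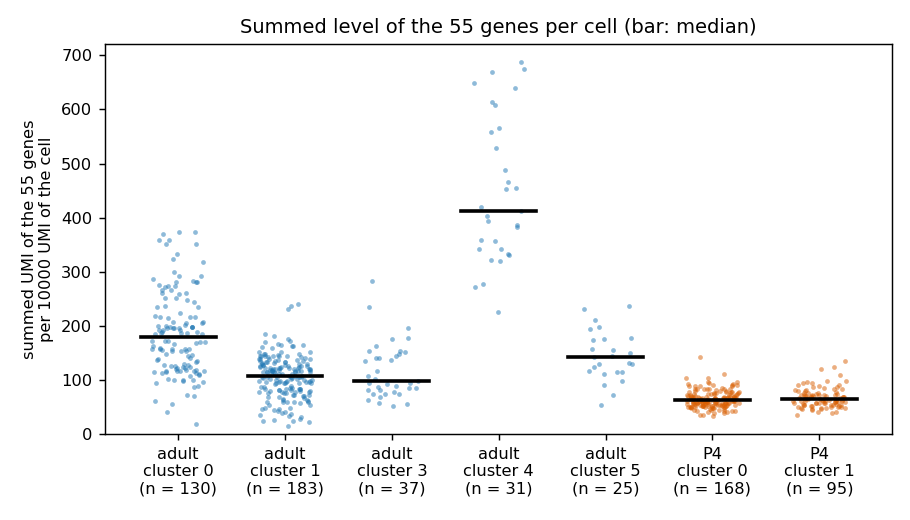
Summed UMI of the 55 genes per 10000 UMI of each cell (vertical axis) in each cluster; each point is a cell, blue adult and orange P4, and the bar is the median over cells. Cells of adult cluster 4 lie between 225.9 and 687.5 with a median of 411.6, and those of the P4 clusters reach at most 142.0, with medians of 62.6 and 64.7.

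The same order was seen cell by cell. In cluster 4 the lowest cell stood at 225.9, the median cell at 411.6 and the highest at 687.5. In cluster 0 these were 18.3, 178.9 and 374.1, so the ranges overlapped, but the lower quartile of cluster 4, 342.1, lay above the upper quartile of cluster 0, 234.8. Clusters 1, 3 and 5 had medians of 107.2, 97.3 and 141.8. At P4 no cell reached the adult cluster 4 range: the highest were 142.0 in cluster 0 and 134.8 in cluster 1.

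Gene by gene, 45 of the 55 members had their highest level of all 7 clusters in adult cluster 4, which had the fewest UMI (61113). The share of all genes that were highest there was not computed. The other 10 members were Kdelr1, Sec61a1, Sec63, Sel1l and Xbp1, highest in cluster 5, P4hb and Srp9 in cluster 0, Srp14 in cluster 1, and Atf4 and Atf6 in cluster 3. Among these 10, Srp9 ran only from 2.50 to 2.96 over the adult clusters and Xbp1 from 1.89 to 2.59, with intervals that overlap between all 5. Hspa5, which encodes the main chaperone BiP (chromosome 2, 34771970 to 34777547, plus strand, GENCODE M21 on GRCm38), stood at 16.0 (13.0 to 19.5) in cluster 4. It was at 6.12 in cluster 0, 4.46 in 5, 5.20 in 3 and 3.85 in 1, and at 1.51 and 1.66 in P4 clusters 0 and 1. Its interval in cluster 4 lay above all the others, and those of clusters 3 and 5 overlapped each other and the interval of cluster 1.

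Fkbp11, which encodes a prolyl isomerase of secretory cells (chromosome 15, 98724366 to 98728198, minus strand), was scarce outside clusters 0, 4 and 5 in the adult. It stood at 3.76 (2.39 to 5.65) in cluster 4, 0.702 (0.492 to 0.972) in cluster 0 and 0.446 in cluster 5, with 3 counts in cluster 1 and 0 in cluster 3. Derl3, which encodes a membrane protein of the degradation pathway (chromosome 10, 75893413 to 75895941, plus strand), followed a like order, at 2.62 (16 UMI), 0.643, 0.357, 0.101 and 0.244 in clusters 4, 0, 5, 1 and 3. At P4 Derl3 had 1 count in each cluster. Sec61b, a subunit of the translocation channel (chromosome 4, 47474658 to 47483242, plus strand), varied less over the adult, from 14.4 (11.5 to 17.7) in cluster 4 to 9.01, 8.42 and 8.12 in clusters 5, 1 and 3, and stood at 3.85 and 3.65 in P4 clusters 0 and 1.

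**Figure D2:**
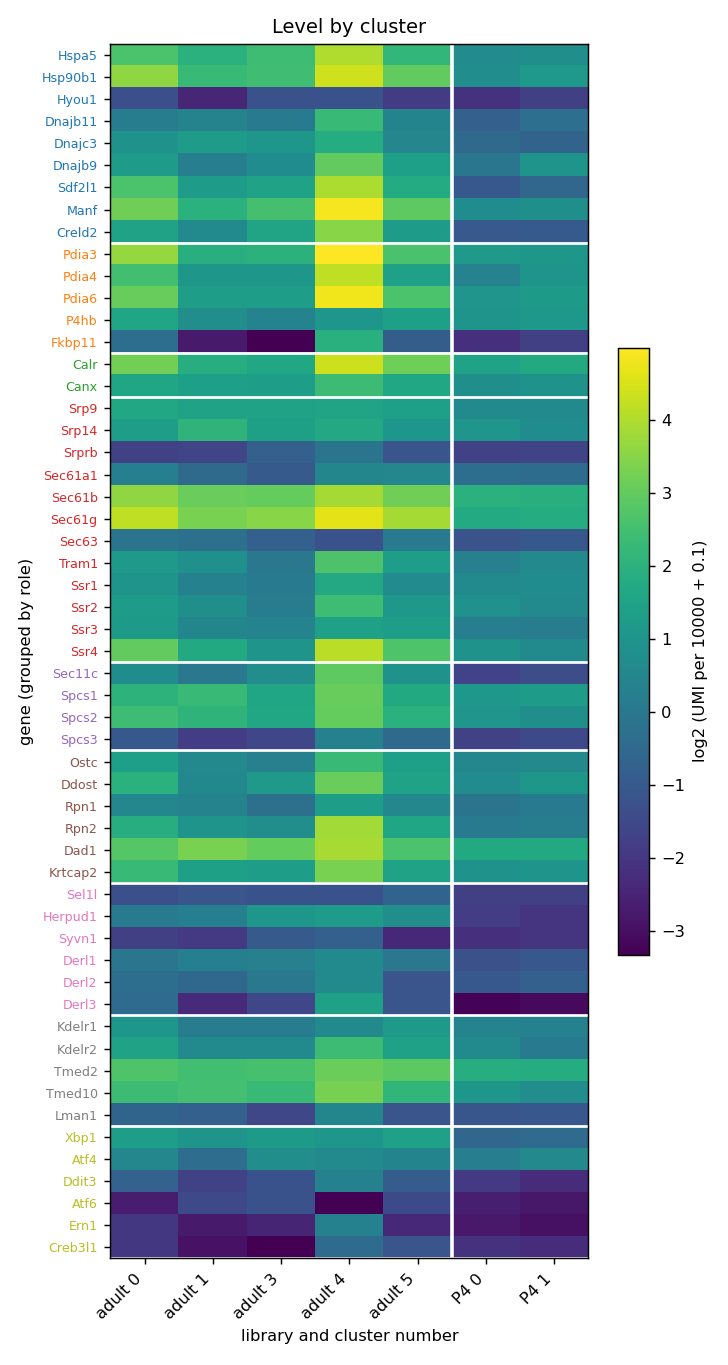
Heat map of the level of each member (rows, grouped and coloured by role) in each cluster (columns, adult left of the white line and P4 right), as log2 of UMI per 10000 plus 0.1, brighter for higher. The column of adult cluster 4 is the brightest for 45 of 55 genes, and 32 genes are lower in both P4 columns than in every adult column. The same counts over all genes were not made.

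Adult clusters 4 and 0 both carry Ovgp1, at 282.1 (268.9 to 295.7) and 58.7 (56.6 to 60.8). Between them, 26 of 50 measured members were at least 2-fold higher in cluster 4, 1 was lower and 23 lay within 2-fold. Among all 3229 genes measured there, 11.0% were higher and 12.6% lower. The median log2 fold was 1.04 over the measured members, 1.0 over all 55 and 0.04 over all genes measured. Atf6, Sel1l, Hyou1, Syvn1 and Creb3l1 had too few cells with a UMI to be measured. Several members had led this comparison in earlier results on these data, so the count is a description.

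Folding enzymes differed most. Of 8 measured chaperones 6 were higher (summed level 109.6 against 41.3): Dnajb11, a BiP co-chaperone (4.91 against 1.03, log2 fold 2.14), Creld2 (11.3 against 2.65, 2.05), Dnajb9 (7.85 against 2.28, 1.74), Manf (29.5 against 8.97, 1.70), Hspa5 (1.37) and Sdf2l1 (15.5 against 6.08, 1.34). Hsp90b1 (20.8 against 12.1) and Dnajc3 were within 2-fold. Of the 5 isomerases 4 were higher, with Fkbp11 at a log2 fold of 2.27 (ratio interval 3.03 to 9.30), Pdia6 at 1.77 (28.0 against 8.15), Pdia4 at 1.71 (18.0 against 5.42) and Pdia3 at 1.32 (31.6 against 12.6). P4hb, which encodes the founding disulfide isomerase, stood apart at 1.96 against 2.92, with a ratio interval of 0.339 to 1.21 that includes 1. Calr was higher (20.3 against 9.24) and Canx was at 5.07 against 2.92.

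Genes of protein entry moved less evenly. Of 12 targeting and translocation genes 4 were higher, Srprb, Tram1, Ssr2 and Ssr4, and 7 were within 2-fold, among them all 3 subunits of the Sec61 channel. Sec63 was lower, on 2 counts in cluster 4 and with a ratio interval of 0.0469 to 1.54 that includes 1. In the signal peptidase, the catalytic subunit gene Sec11c stood at 7.53 (5.51 to 10.0) against 1.54 (1.22 to 1.92), a log2 fold of 2.22, while Spcs1 and Spcs2 were within 2-fold. Spcs3 was higher on 7 counts. The oligosaccharyltransferase had 4 of 6 genes higher, with Rpn2 at 14.2 against 3.49 (log2 fold 2.0) and Rpn1 within 2-fold at 2.45 against 1.35. Of 4 measured degradation genes Derl3 (1.87) and Herpud1 (1.18) were higher, and of 5 transport genes Lman1 alone, which encodes a cargo receptor, on 8 counts.

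Of 4 measured regulators 2 were called higher, with a median log2 fold of 0.59. Xbp1 stood at 1.96 against 2.36 (ratio interval 0.418 to 1.51) and Atf4 at 1.47 against 1.33. Counts at the 3' end do not show whether Xbp1 RNA was spliced. Those called were Ern1 (7 counts against 8) and Ddit3 (7 against 26), and the ratio interval of Ddit3, 0.828 to 5.34, includes 1. The log2 fold of Ddit3 was −0.07 when every cell weighed alike and −3.04 among cells with at most 2500 UMI, and that of Ern1 was 0.00 at an equal depth of 1000 UMI.

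**Figure D3:**
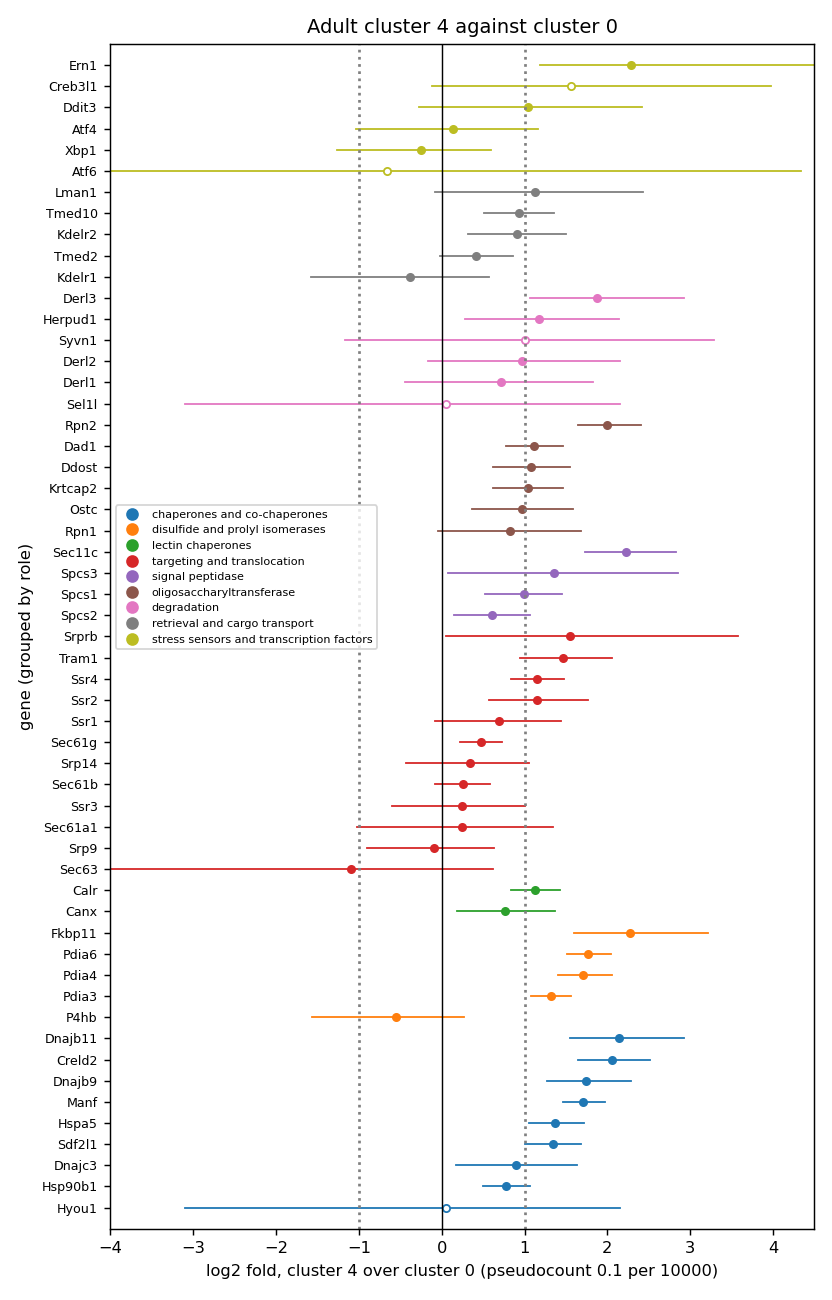
Log2 fold of each member in adult cluster 4 over cluster 0 (horizontal axis, 0.1 per 10000 added), grouped by role. Lines are exact 95% intervals of the ratio, cut at the plot's edge for Atf6, Ern1 and Sec63, open points are genes not measured, and dotted lines mark 2-fold; chaperones and isomerases other than P4hb, Hsp90b1, Dnajc3 and Hyou1 lie right of the upper line.

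Depth, stress genes and ribosomal genes also differed between these clusters. Cluster 4 cells had a median of 1185 UMI against 4107.5, all 15 dissociation stress genes were lower in cluster 4 (summed 46.3 against 165.4), and ribosomal protein genes stood at 1749 against 2419. With cells of at most 2500 UMI alone (20 against 47 cells) 29 of 42 measured members were higher and 2 lower, against 21.3% and 14.2% of all genes measured there. At 500 UMI drawn from every cell 25 of 37 were higher, against 20.9% of all genes. The part of the stress genes in the result was not tested. Of the markers of plasma cells, a cell type known for high levels of these genes, the 3 listed (Jchain, Mzb1 and Tnfrsf17) had 0 UMI in cluster 4, as had 8 of 9 immune markers. Cytosolic heat shock genes summed to 32.6 against 42.8. The multiciliated markers stood at 6.71 against 3.12. Without cells that carried 2 or more markers of smooth muscle, fibroblast, endothelial, immune or plasma cells 31 of 47 members were higher. Of all genes measured there, 14.1% were.

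A list of 79 other genes of the reticulum and early secretory pathway, of which 73 were listed, showed a smaller difference. Of 54 measured, 17 were higher in cluster 4 and 3 lower (median log2 fold 0.61). Higher were Creb3, a transcription factor gene of the reticulum membrane (2.15), Sec22b (1.82), Erp44 (1.76), Sil1, the exchange factor of BiP (1.74), Pdia5 (1.66), Ppib (1.57), Tmed3 (1.57) and Stt3a (1.41), among others. Lower were Ppp1r15a, which is induced by stress and restores translation (1.15 against 6.51), and Srp72 and Mcfd2, each on 1 count in cluster 4.

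Within cluster 0, the members were set against Ovgp1 cell by cell, with Ovgp1 left out of each cell's total. The 43 cells with the most Ovgp1 (59.4 to 291.3 per 10000) were compared with the 43 with the least (0 to 18.1, 15 of them without a UMI). The summed level of the 55 members was lowest at 117.5, at the median 246.2 and highest at 380.9 in the former, and 18.3, 118.0 and 374.3 in the latter, so the ranges overlapped. Of 48 measured members 25 were higher in cells rich in Ovgp1 and 1, Ddit3, was lower, against 12.7% and 6.86% of all 4026 genes measured. The median log2 fold was 1.06 over the measured members, 0.98 over all 55 and −0.02 over all genes measured.

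By role, chaperones, isomerases and lectin chaperones had the largest ratios of summed levels, at 3.52, 3.21 and 3.36. Hsp90b1, the reticulum's Hsp90, stood at 17.2 (15.5 to 19.0) against 2.22 (1.37 to 3.39), a log2 fold of 2.90. Among the genes of these roles, Dnajc3 (2.50), Calr (2.11, 12.2 against 2.74), Creld2 (1.98), Pdia6 (1.92, 11.9 against 3.06) and Sdf2l1 (1.87) followed. All 5 isomerases, P4hb included, were higher. Outside these roles, Derl3 had 24 counts against 1 (log2 fold 2.55, ratio interval 1.70 to 429.5), above Dnajc3. Sec61a1, the pore of the channel, had 30 against 2 (2.25, 1.66 to 56.4), above Calr. Rpn2 (1.79), Sec11c (1.76), Pdia4 (1.69), Ddost (1.64), Hspa5 (1.38) and Dnajb11 (1.09) were higher as well, as was Fkbp11, on 19 counts against 3 (ratio interval 0.811 to 14.5). Of 11 measured translocation genes 3 were higher, Sec61a1, Ssr2 (1.62) and Sec63 (25 counts against 3), and 0 lower, with a median log2 fold of 0.72. Their summed level, 59.7 against 54.2, is carried by Sec61b, at 12.2 against 14.5, and Sec61g, at 18.8 against 21.7. Xbp1 stood at 2.80 against 1.79.

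The cells rich in Ovgp1 were also deeper, with a median of 4981 UMI against 1467. At an equal 1000 UMI per cell (37 against 37 cells) 16 of 35 measured members were higher and 2 lower, against 10.1% and 14.2% of all genes; Hsp90b1 (2.06), Pdia6 (1.98), Ddost (1.95), Creld2 (1.71) and Pdia4 (1.69 before and 1.71 after) stayed above 2-fold, while Sec11c and Dnajb11 turned to −0.36. With the cells split at the median of Ovgp1 (65 against 65), 6 of 50 members were higher, against 4.06% of all genes, with a median log2 fold of 0.52. Stress genes (153.8 against 167.2) and ribosomal protein genes (23.7% against 24.3% of UMI) differed little between the sides, and mitochondrial genes stood at 5.13% against 3.23%. Fibroblast markers stood at 3.17 against 1.06, whose part in the result was not tested.

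In cluster 4 all 31 cells held Ovgp1, and the 10 cells with the most (427.4 to 1364) were set against the 10 with the least (39.0 to 193.6). Of 51 measured members 15 were higher and 6 lower, against 18.5% and 27.7% of all 3053 genes. The median log2 fold was 0.39 over the members and 0.08 over all genes. Isomerases were the clearest group, at a summed 140.2 against 56.7 (ratio interval 1.98 to 3.10). Pdia3 stood at 53.5 (42.2 to 67.0) against 21.6 (16.1 to 28.4), Pdia6 at 49.3 against 17.8, and Rpn2 at 28.9 (20.7 to 39.2) against 6.77 (3.87 to 11.0). With 500 UMI drawn from every cell the log2 fold of Pdia6 was −0.06, and that of Sec11c, at 14.1 against 6.77 before, was −0.60.

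The other calls in cluster 4 rest on few counts. Of those higher, Pdia4 had 41 against 29, Ddost 19 against 9, Canx 12 against 6 and Derl3 6 against 4. Herpud1 and Rpn1 (8 against 2 each), Dnajc3 (6 against 3), Xbp1 (5 against 2), Lman1 (3 against 2), Kdelr1 (3 against 1) and Derl2 (2 against 1) had 3 counts or fewer on at least 1 side. So had all 6 called lower: Srp9 (2 against 12), Kdelr2 (3 against 13), Atf4 (0 against 5), Ern1 (1 against 4), Ddit3 and Creb3l1 (0 against 2 each). Dissociation stress genes also differed here, with 14 of 15 lower in the cells rich in Ovgp1 (15.5 against 97.4). Mitochondrial genes took 1.60% of UMI against 5.08%, and multiciliated markers stood at 4.23 against 11.4. The part of these in the result was not tested. The 2 clusters share no cells, and 11 members were higher with Ovgp1 in both: Ddost, Derl3, Dnajc3, Herpud1, Kdelr1, Pdia3, Pdia4, Pdia6, Rpn1, Rpn2 and Sec11c, which is 44.0% of the list from cluster 0 and 73.3% of that from cluster 4. The list from cluster 0 already holds 25 of its 48 measured members, and whether more names are shared than such long lists would share was not tested. Sec11c lay below 0 at 1000 UMI per cell in cluster 0, and Sec11c and Pdia6 did at 500 UMI per cell in cluster 4, as given above.

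**Figure D4:**
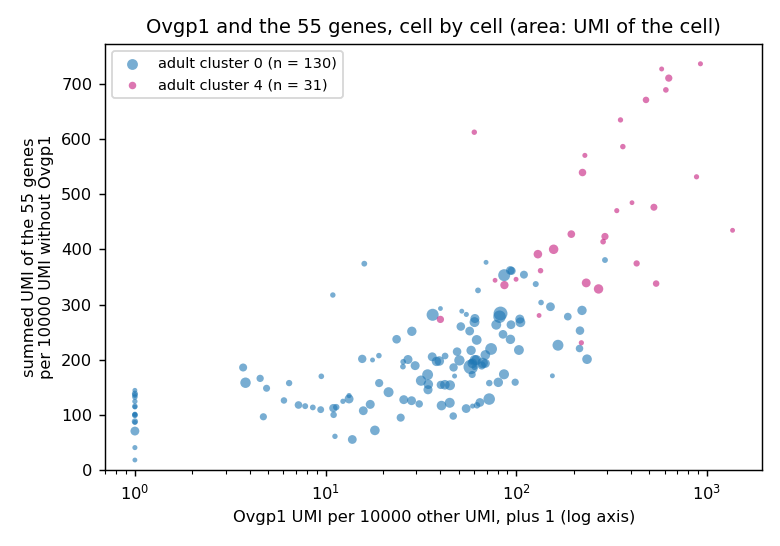
Each point is a cell of adult cluster 0 (blue) or 4 (pink), with Ovgp1 per 10000 other UMI plus 1 on a log axis and the summed UMI of the 55 genes per 10000 UMI without Ovgp1 on the vertical axis; area follows the UMI of the cell. In both clusters cells with more Ovgp1 tend to lie higher; the lowest cell of cluster 4 in Ovgp1 stands at 39.0.

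Over all cells of cluster 0 the summed level of the members and that of Ovgp1 had a Pearson r of 0.65 and a Spearman rho of 0.68 (n = 130 cells), and in cluster 4 0.53 and 0.59 (n = 31). These points share a library, and both values have the same total as denominator. At 1000 UMI per cell r was 0.55 (n = 112) and 0.51 (n = 19), and without the 2 cells farthest from the median of Ovgp1 it was 0.64 and 0.54. By role, isomerases had r of 0.65 in cluster 0 and 0.63 in cluster 4, and chaperones 0.66 and 0.37. Translocation genes stood at 0.10 and 0.13 and the regulators at 0.17 and −0.12. At 1000 UMI per cell isomerases had r of 0.52 in cluster 0 and 0.62 in cluster 4, and chaperones 0.45 and 0.49. At that depth translocation genes had 0.01 and 0.03 and the regulators −0.07 and −0.20. Other measures followed Ovgp1 too. In cluster 0 mitochondrial genes, counted in the same way, had r of 0.53 (0.49 at 1000 UMI) and the cell's total UMI 0.47, while ribosomal protein genes had 0.01. In cluster 4 these were −0.05, −0.20 and 0.05, and the list of other secretory pathway genes had 0.74 there, above the members, and 0.39 in cluster 0.

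Clusters 0 and 4 together (161 cells) were then set against clusters 1 and 3, which carry cilium genes (220 cells); the former are also the cells of the comparisons above. Of 49 measured members 17 were higher and 0 lower, against 10.0% and 20.4% of 4185 genes. The median log2 fold was 0.80 over the members and −0.19 over all genes. Fkbp11 had 59 counts against 3 (ratio interval 7.99 to 122.3), and Derl3 49 against 9 (log2 fold 2.08). Pdia6 (10.3 against 2.43, 2.03), Pdia3 (14.6 against 3.73, 1.94), Pdia4 (1.71), Sdf2l1 (1.56), Calr (10.4 against 3.47, 1.56), Ssr4 (1.54), Ddost (1.49), Hsp90b1 (1.41), Manf (1.39) and Rpn2 (1.28) completed the 12 largest. Of 5 isomerases 4 were higher, of 8 chaperones 5 and of 11 translocation genes 1, Ssr4. Also higher were Ddit3 (33 counts against 16, 1.06), Creld2 (1.02) and Sec11c (1.02), while Atf4 was within 2-fold at 1.34 against 0.838.

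Some members leaned the other way. Srp14 stood at 2.51 against 3.87 (ratio interval 0.526 to 0.796) and Dad1, a subunit gene of the oligosaccharyltransferase, at 7.68 against 9.57 (0.711 to 0.906), both within 2-fold. Hspa5 was at 7.18 against 4.08 (log2 fold 0.80), Dnajb11 at 1.45 against 1.16, Xbp1 at 2.32 against 1.94 and Sec61b at 12.3 against 8.37. Ribosomal protein genes took more of the UMI in clusters 0 and 4 (2348 against 968.8). With these, mitochondrial genes and Ovgp1 left out of the total, 27 of 49 members were higher, against 14.2% of all genes, and all genes had a median of 0.05. When every cell weighed alike 26 of 49 were higher, against 12.1% of all genes. In the list of other secretory pathway genes 13 of 56 were higher, led by Pdia5 (1.88), Creb3l2 (1.86), Tmed3 (1.75) and Edem1 (1.69), and 3 lower, Tusc3, Dnajc10 and Sec23b.

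The P4 clusters hardly differed in these genes. Of 49 measured members 1 was higher in P4 cluster 1 than in cluster 0 and 0 were lower, where 1.37% and 1.0% of 7791 genes were. The one was Dnajb9, a BiP co-chaperone (1.87, 1.56 to 2.23, against 0.849, 0.706 to 1.01), at a log2 fold of 1.05, and it lay within 2-fold without the 5% of cells with the most UMI. The median log2 fold was 0.10. Hspa5 stood at 1.66 against 1.51, Xbp1 at 0.649 against 0.568, Creld2 at 0.408 against 0.404 and Sec61b at 3.65 against 3.85. Ovgp1 stood at 3.77 against 1.38. Without cells that carry 2 or more non-epithelial markers 4 and 5 cells were left, too few for a value to be read.

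P4 cells were compared with the 161 cells of adult clusters 0 and 4 over the 26897 genes in both tables. The levels of this comparison are per 10000 UMI of those genes. Age, library, sort, depth, annotation and estrous stage cannot be told apart here. The members summed to 75.2 at P4 against 223.8 in the adult, 28 of 51 measured were lower at P4 and 0 higher, and 7.01% and 12.6% of 5603 genes were lower and higher. The median log2 fold was −1.08 over the measured members, −1.06 over all 55 and 0.13 over all genes. Of the 55, 54 lay below 0, among them Ssr2, whose value depends on copies described below. With adult cluster 0 alone 25 of 51 were lower, against 6.86% of all genes, and with all adult cells 22 of 49, against 11.2%.

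**Figure D5:**
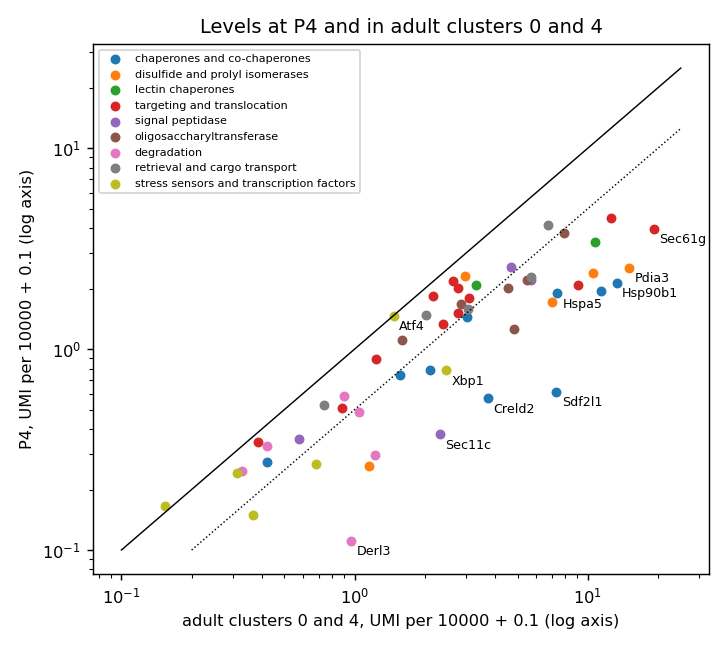
Level of each member at P4 (vertical axis) against adult clusters 0 and 4 (horizontal axis), in UMI per 10000 plus 0.1 on log axes, coloured by role. The solid line marks equal levels and the dotted line a 2-fold lower level at P4; 28 measured genes lie below the dotted line, Sdf2l1 and Derl3 farthest, and Atf4 lies on the solid line.

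Chaperones were lowest at P4 relative to the adult cells, with 8 of 9 lower (summed 9.51 against 49.4), followed by isomerases (4 of 5, 8.73 against 36.1). Sdf2l1 stood at 0.511 (0.413 to 0.625) against 7.22 (6.53 to 7.95), a log2 fold of −3.58, and Derl3 had 2 counts against 49 (ratio interval 0.00147 to 0.0477). Creld2 (−2.72), Hsp90b1 (−2.63, 2.04 against 13.2), Sec11c (−2.62), Manf (−2.56), Pdia3 (−2.56, 2.44 against 14.9), Sec61g (−2.27, which depends on copies described below), Pdia6 (−2.13), Ssr4 (−2.13), Fkbp11 (−2.12) and Herpud1 (−2.04) came next. Hspa5 was at 1.79 (1.61 to 2.0) against 7.30 (6.62 to 8.04), a log2 fold of −1.97, and Dnajb11 at −1.08. P4hb, again apart from the other isomerases, stood at 2.21 against 2.87. Of 12 translocation genes 3 were lower and of 5 transport genes 1.

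Xbp1, within 2-fold between the adult clusters, was lower at P4 (0.685, 0.571 to 0.816, against 2.36, 1.97 to 2.79, log2 fold −1.65), as was Ddit3 (−1.35). Atf4 stood at 1.36 against 1.37 (ratio interval 0.768 to 1.30). The ribosomal protein genes were not lower at P4 (2910 against 2389), stress genes stood at 111.4 against 155.4, fibroblast markers at 6.95 against 2.09 and multiciliated markers at 7.98 against 3.56. Mitochondrial genes were lower at P4, at 85.3 and 89.6 in its clusters 0 and 1 against 471.9 and 415.1 in adult clusters 0 and 4. The part of these in the result was not tested. Of the other secretory pathway genes 16 of 57 were lower at P4, with Tmed3 (−2.44), Fkbp2 (−2.28), Edem1 (−2.11) and Sil1 (−1.78) first, and 1, Sec23b, was higher.

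Near-identical copies touch some of these values, since the P4 table lists copies that the adult table does not. The 3' ends of 6 members matched another gene elsewhere at 95% identity or more. Sec61g stood at 3.87 against 19.1 (log2 fold −2.27); the copy Gm10177 held 939 UMI at P4, and with all copies added the log2 fold was −1.07. For Sec61b it went from −1.49 to −1.15. For Ssr2 it went from −0.45 to −0.10 with Rtraf, a protein-coding gene of its own, which the adult matrix lists under an older symbol. How many of the Rtraf UMI came from Ssr2 is not known. The pseudogene Gm10704, which overlaps Ssr2, held 186 UMI at P4 beside 353 of Ssr2. It is not listed for the adult and was not added, so the direction of Ssr2 cannot be read. For Spcs2 the log2 fold went from −1.37 to −1.28, and for Dnajb9 and Tmed10 the copies held 0 UMI. Without the 6 members 23 were lower.

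Members with an ERSE or ERSE-II in the promoter window are given beside those whose window held none and the 14 with no entry. Between clusters 4 and 0, 8 of the 12 were higher and 0 lower (median log2 fold over all 12 of 1.15), against 12 higher and 1 lower of the 29 without (0.93) and 6 higher of the 14 with no entry (1.05). Between clusters 0 and 4 and clusters 1 and 3, 6 of 12, 9 of 29 and 2 of 14 were higher (medians 0.91, 0.75 and 0.85). Between the P4 clusters 0 of 12, 1 of 29 and 0 of 14 were higher. Between cluster 0 cells rich and poor in Ovgp1, 9 of 12, 11 of 29 and 5 of 14 were higher (medians 1.65, 0.90 and 0.84). In cluster 4, 5 of 12, 8 of 29 and 2 of 14 were higher in cells rich in Ovgp1 (medians 0.84, 0.24 and −0.08), and 0, 4 and 2 were lower. At P4, 10 of 12, 15 of 29 and 3 of 14 were lower than in the adult clusters (−1.81, −1.06 and −0.71). These counts share cells and genes with the comparisons above, and the difference between the groups was not tested. Most of the 12 are chaperone, lectin chaperone or isomerase genes, and motif and role were not separated.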

How the data were processed

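Levels come from tables of raw UMI counts per gene and cell that the authors deposited for the adult and the P4 library, with a cluster number per cell. The submitters' processing notes name Cell Ranger, Seurat 2.3.4 and the build mm10, without the role of each. The values are whole numbers whose totals differ between cells, and were taken as unnormalized. The merged tables were not used here. The 55 members, their roles and the lists were chosen with earlier results of these data known; Fkbp11, Sec11c, Dnajb11 and Creld2 had already been seen to lead cluster 4 over cluster 0.

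Of 807 adult columns, 1 per barcode was kept (406), that of the prefix ending in 4948 first. Counts were summed over the cells of a group and divided by the group's total, with exact Poisson 95% intervals for levels and exact conditional intervals for ratios (Python 3.11.15, scipy 1.17.1, numpy 2.4.6, pandas 2.3.3). For comparisons within a cluster, cells were ranked by Ovgp1 per 10000 other UMI and the lowest and highest of 3 equal parts compared. Where 1 side had 0 counts, the fold rests on the 0.1 per 10000 added to both levels, and calls and medians hold such genes. A bound against a floor of 3 counts was also computed, but no call rests on it. No doublet caller was run. Named in each comparison are up to 12 members with the largest fold of 2 or more per direction, up to 8 of the other pathway genes, and always Hspa5, Xbp1, Atf4, Ddit3, Fkbp11, Sec11c, Dnajb11, Creld2, Derl3, Sec61b and Ovgp1. Members that lean against a group were added after their values were seen. The last 300 bases of member transcripts were compared with GENCODE M21 transcripts by blastn 2.17.0 (95% identity over 150 bases or more), and these copies were looked up in both tables also under RefSeq synonyms. All other genes were matched between the ages by the symbol listed. Promoter sequences are from RefSeq on GRCm38.p6. The calling of folds was tested on simulated counts, with changes larger than 2-fold, only in genes with many counts in cluster 0. Its simulated cells differed only by depth and counting error, so it does not cover calls on few counts or variation between cells.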

Additional observations from a re-analysis of the deposited data

How the results depend on the processing

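Alternatives were equal weight per cell, thinning to 1000 UMI, a pseudocount of 0.5, no filter or one of 25%, totals without Ovgp1, ribosomal protein and mitochondrial genes, leaving out the deepest 5% of cells or those in which 2 or more non-epithelial markers were found, the second prefix, other groups of cells, and, added after the data were seen, a fold of 1.5, thinning to 500 UMI and leaving out members with copies. Each age is 1 library and cluster 4 holds 31 cells, so genes on few counts set the limit. No paired analysis was possible because each age has 1 library.

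In cluster 4 against 0 between 20 and 31 members were higher at the 2-fold threshold, where between 4.10% and 23.0% of all genes were. At 1.5-fold 38 were higher, against 22.9% of all genes. The count of lower members, 1, was 0 after thinning to 1000 or to 500, with a pseudocount of 0.5, with the 25% filter, without the deepest cells and without cells with non-epithelial markers, and 2 among cells of at most 2500 UMI. In clusters 0 and 4 against 1 and 3 the 17 higher members became 26 with equal weight, 27 with the reduced total and 30 at 1.5-fold. Of all genes 12.1%, 14.2% and 17.6% were higher there. The 17 became 13 with a pseudocount of 0.5, 13 for cluster 0 against cluster 1 and 14 with the 25% filter. Of all genes 6.28%, 10.6% and 13.9% were higher there. In this comparison 1 member was lower without the filter and at 1.5-fold. For Ovgp1 in cluster 0 the 25 higher became 16 after thinning and 6 for cells split at the median (10.1% and 4.06% of all genes). The 1 lower became 2 after thinning and at 1.5-fold, and 0 with the other pseudocount, the 25% filter, without cells with non-epithelial markers and for the split at the median. For Ovgp1 in cluster 4 the 6 lower became 2 with the 25% filter, where 13.8% of all genes were lower. At 1.5-fold 23 of 51 were higher and 10 lower, against 41.5% and 34.4% of all genes. At 1000 UMI 15 of 40 were higher and 5 lower, against 29.9% and 20.3%. For the split at the median 12 of 51 were higher and 4 lower, against 17.4% and 19.8%. Between P4 clusters the 1 higher became 0 with the other pseudocount and without the deepest cells and 2 at 1.5-fold; 12 were higher and 10 lower without cells with non-epithelial markers, but on 4 and 5 cells, where 36.4% and 41.8% of all genes were called, so these counts cannot be read. For P4 against the adult clusters between 20 and 40 members were lower and 0 higher under every alternative run. Of all genes between 2.33% and 16.1% were lower there.

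Of 1199 values of single genes recomputed, 975 moved by less than their counting interval, 211 moved by more and 13 changed direction or fell to 0. In cluster 4 against 0 these were Ddit3, at −0.07 with equal weight, −3.04 among cells of at most 2500 UMI and −2.03 at 500 UMI, and Ern1 at 0.00 after thinning to 1000. For Ovgp1 in cluster 0 they were Sec11c and Dnajb11, both −0.36 at 1000 UMI. For Ovgp1 in cluster 4 they were Derl2 at −0.06 for the split at the median, Ddit3 and Ern1 at 0.00 at 1000 UMI, and at 500 UMI Pdia6 at −0.06, Sec11c at −0.60, and Ddit3 and Creb3l1 at 0.00. Some of these changes came under settings without thinning, as for Derl2 and for Ddit3 with equal weight, and the cause was not tested.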
